A study of Mus musculus with 96 samples.

Results

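The cell cycle genes described here are 37 genes chosen by name for their work in DNA replication and cell division, and they were taken from the arrays through every probe annotated with such a symbol. The array carried 59 probes for 34 of them, among 18312 genes or unnamed features in all. No probe of Mki67, Ccnb1 or Aurkb was found in the annotation used, and these 3 genes were not analysed here. The genes fall into 6 roles: G1 cyclins, the helicase that licenses replication, enzymes and factors of DNA synthesis, mitotic cyclins and kinases, the spindle checkpoint with the anaphase promoting complex, and proteins of chromosomes, spindle and midzone.

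RNA came from male mice, from epididymal white fat (eWAT), brown adipose tissue (BAT), skeletal muscle and liver, on 96 Illumina bead arrays in 16 groups of 6. The conditions were SIRT1Tg/Tg mice with free access to a low fat diet (SIRT1Tg), wild-type mice kept for 3 months on the caloric restriction that the labels call EODF (CR), wild-type mice on the low fat diet with a running wheel cage for 10 weeks (EX), and wild-type C57/Bl6 mice with free access to the low fat diet (WT). All were killed at 8 a.m. after 12 h without food, so no group was fed at sampling. The labels do not name the promoter of the transgene, do not expand EODF and give no distance run, and CR and EX carried no transgene. Array titles carry a number that was read as the animal's, which gives 27 animals, and the numbers fall into a lower series, A, and a higher series, B. All 8 EX animals belong to series A and all 6 CR animals to series B, whereas SIRT1Tg has 3 animals in each series and WT 3 in A and 4 in B. In each tissue the SIRT1Tg and WT groups hold 3 arrays of each series. No source used here explains the series, so the fits carry them as a term.

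Cells that divide pass through G1, when D and E cyclins switch on cyclin-dependent kinases, through S phase, when the Mcm helicase opens DNA and enzymes such as thymidine kinase supply nucleotides, and through mitosis, when Cdk1, Plk1 and aurora kinases drive chromosome segregation. In non-dividing cells the repressor complexes of the Rb family hold most of these genes low, through E2F sites in S phase genes and through a CHR element, often beside CCAAT boxes, in mitotic genes. Most hepatocytes, muscle fibres and fat-laden adipocytes of adult mice do not divide, and in fat the dividing cells are largely precursors, endothelial cells and immune cells.

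Sets of arrays stood apart from the rest. Detected probes ran from 5841 to 15381 per array, and 1 SIRT1Tg liver array had the lowest number. That array also read Sirt1 at 4.48 on the log2 scale, against 7.34 to 7.65 on the other 5 SIRT1Tg liver arrays and 5.77 to 6.30 on WT liver arrays, and so it went against its label. In muscle, BAT and eWAT every SIRT1Tg array read Sirt1 above every WT array (log2 fold changes 1.83, 1.37 and 2.58, limma adjusted p of 3.74e-10, 2e-09 and 7.78e-13). Several eWAT arrays carried transcripts of epididymis or sperm cells, up to 13.49 for the summed spermatogenic markers on an EX array, and some BAT arrays carried muscle fibre transcripts, up to 14.76 for the summed markers on a CR array. The last number of each array title was read as that of its slide, which gives 12 slides with 8 arrays each. In both fat tissues no slide held SIRT1Tg and WT arrays of the same tissue, so there genotype and slide cannot be told apart. The CR and EX groups shared 1 slide with WT in each tissue, with 1 array on each side, so slide and condition were nearly as hard to separate there. For the comparisons with WT and the tests between tissues, counts or values without the 18 arrays that stood apart are given where they differ. The pairs of WT tissues were not refitted without these arrays.

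Detection differed between the tissues. A probe counted as detected on an array when its intensity lay above the upper 0.05 tail of background on that array, and a gene was kept in a tissue with a probe detected on at least 6 of its 24 arrays. By that measure 28 of the 34 genes were kept in eWAT, 22 in liver, 22 in BAT and 16 in muscle. Of the 59 probes 66.1% were kept in eWAT, 55.9% in liver, 47.5% in BAT and 35.6% in muscle, beside 61.1%, 51.4%, 51.8% and 48.4% of all 25697 probes. The 15 genes kept in all 4 tissues were Ccnd1, Mcm2, Mcm4, Mcm5, Mcm6, Mcm7, Pcna, Rrm1, Aurka, Birc5, Prc1, Cenpa, Nusap1, Hmgb2 and Cdca3. Cdk1, Cdc20, Plk1, Tk1, Tyms and Uhrf1 were kept in 3 tissues, and Ccne1, Bub1b and Stmn1 in 2. Top2a, which untangles sister chromatids, Rrm2, the S phase subunit of ribonucleotide reductase, Mcm3 and Cdca8 were kept in eWAT and in no other tissue. Ccna2, Ccnb2, Bub1, Kif11, Ube2c and Tpx2, most of them mitotic, were kept in no tissue. In such bulk samples, fewer cells of a type and less RNA per cell cannot be told apart.

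In the 12 comparisons with WT, 7 differences of members passed an adjusted p of 0.05 by limma, and every such difference was a decrease. The 250 bases before and the 50 bases after the start of 6 of the genes are shown here, with matches of known cell cycle motifs in capitals, because these are the stretches through which the cell cycle repressors are known to act. The sequences are from RefSeq, build GRCm38.p6, 5′ to 3′ on the strand of the gene, and the table held no entry for Ccnd1. Capitals mark the E2F site (TTTCCCGC, TTTCGCGC, TTTGCCGC or TTTGGCGC), the CHR element (TTTGAA) and the CCAAT box (CCAAT), searched on both strands, so that a match on the other strand reads as its reverse complement. Mcm5 lies at chr8:75109259-75109558 (plus strand), Tk1 at chr11:117825965-117826264 (minus strand), Cenpa at chr5:30666636-30666935 (plus strand), Prc1 at chr7:80294201-80294500 (plus strand), Hmgb2 at chr8:57511593-57511892 (plus strand) and Aurka at chr2:172370521-172370820 (minus strand).
Mcm5: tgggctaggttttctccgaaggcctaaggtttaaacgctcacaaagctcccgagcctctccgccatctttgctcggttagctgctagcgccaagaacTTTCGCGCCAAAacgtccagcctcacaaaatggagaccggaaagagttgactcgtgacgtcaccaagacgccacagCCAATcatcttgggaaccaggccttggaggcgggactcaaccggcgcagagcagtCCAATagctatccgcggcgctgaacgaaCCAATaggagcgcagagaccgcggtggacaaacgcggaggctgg
Tk1: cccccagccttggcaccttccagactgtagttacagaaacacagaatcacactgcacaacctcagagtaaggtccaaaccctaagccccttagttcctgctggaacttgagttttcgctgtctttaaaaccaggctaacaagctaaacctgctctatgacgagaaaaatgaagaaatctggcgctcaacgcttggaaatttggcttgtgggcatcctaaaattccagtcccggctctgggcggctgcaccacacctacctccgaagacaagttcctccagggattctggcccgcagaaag
Cenpa: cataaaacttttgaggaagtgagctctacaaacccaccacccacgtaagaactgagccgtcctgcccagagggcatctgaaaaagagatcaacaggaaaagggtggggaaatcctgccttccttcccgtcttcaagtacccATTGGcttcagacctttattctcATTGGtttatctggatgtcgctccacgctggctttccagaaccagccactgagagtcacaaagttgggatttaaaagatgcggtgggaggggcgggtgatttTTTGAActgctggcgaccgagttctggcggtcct
Prc1: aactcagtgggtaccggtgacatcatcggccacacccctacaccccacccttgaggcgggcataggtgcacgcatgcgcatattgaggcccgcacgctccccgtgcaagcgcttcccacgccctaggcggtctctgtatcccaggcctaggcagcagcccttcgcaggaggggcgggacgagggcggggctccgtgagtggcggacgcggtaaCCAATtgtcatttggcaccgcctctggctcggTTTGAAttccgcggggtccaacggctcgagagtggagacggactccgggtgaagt
Hmgb2: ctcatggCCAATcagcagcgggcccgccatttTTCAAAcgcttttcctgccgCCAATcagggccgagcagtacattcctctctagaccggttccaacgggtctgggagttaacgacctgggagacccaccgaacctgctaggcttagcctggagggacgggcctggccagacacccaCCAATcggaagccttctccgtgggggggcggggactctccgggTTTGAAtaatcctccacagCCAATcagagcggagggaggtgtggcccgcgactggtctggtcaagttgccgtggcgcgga
Aurka: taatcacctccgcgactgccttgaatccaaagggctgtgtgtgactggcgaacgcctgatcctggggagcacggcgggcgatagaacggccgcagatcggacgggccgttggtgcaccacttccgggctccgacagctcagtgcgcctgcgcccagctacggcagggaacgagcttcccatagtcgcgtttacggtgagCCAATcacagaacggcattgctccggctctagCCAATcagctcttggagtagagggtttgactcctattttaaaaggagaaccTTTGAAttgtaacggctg
The 2 E2F matches of Mcm5, a helicase subunit, overlap each other in 1 run of capitals, and 3 CCAAT boxes follow. Cenpa, Prc1 and Aurka have a CHR element within 50 bases of the start, and Hmgb2 has 2 elements in the window. No letters of the 3 motifs stand in the Tk1 window. For each gene 1 window was taken, the first by coordinate where more than 1 start was listed. Other starts were not searched.

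Promoters were matched for 29 of the 34 genes. A CHR element stood in 15 of the 29 (51.7%), against 18.1% of all 27025 promoters of the same length. At least 1 CCAAT box stood in 24 (82.8%), against 37.8% of all promoters. An E2F site of the 4 forms searched stood in 4 (13.8%), against 2.34% of all promoters, namely in those of Cdk1, Mcm3, Mcm5 and Mcm6. A match is a description of letters in the window and not a measured binding site.

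The question behind the WT arrays was where the genes are read at rest. These levels come from all 96 arrays normalised together, whereas the later comparisons with WT used arrays normalised within a tissue, so the same WT arrays have other levels there. Fitted over the 24 WT arrays, eWAT had more members higher than lower against each other tissue. All 28 members tested were kept in eWAT, against 22 in liver, 22 in BAT and 16 in muscle. Top2a, Rrm2, Mcm3 and Cdca8 entered through eWAT alone, so the detection filter leans towards eWAT. The counts and medians below carry that lean, and its size was not tested. The WT arrays that stood apart were kept in this fit. Against liver, 12 of 28 members were higher and 2 lower in eWAT (34% and 24.1% of all 12533 genes tested), against muscle 16 and 4 (33.8% and 29.9%), and against BAT 12 and 2 (25.2% and 22.1%). The median member differed by 0.18, 0.44 and 0.30 on the log2 scale in these 3 pairs, beside 0.07, 0.03 and 0.01 for all genes. BAT had 4 members higher and 4 lower than liver (32% and 19.5% of all genes), and 7 higher and 4 lower than muscle (27.2% and 24.2%). Liver had 7 members higher and 4 lower than muscle (26.6% and 34%).

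By role, 5, 5 and 3 of 8 chromosome, spindle and midzone members were higher in eWAT than in liver, muscle and BAT, and 4, 3 and 5 of 6 helicase subunits. Among them Top2a in all 3 pairs, Cdca8 against liver and Mcm3 against BAT had entered through eWAT alone. Of the 2 G1 cyclins, none was higher in eWAT than in liver, 2 than in muscle and 1 than in BAT. Prc1, which bundles microtubules at the midzone, averaged 6.13 ± 0.48 in eWAT, 5.34 ± 0.62 in liver, 4.61 ± 0.16 in muscle and 5.35 ± 0.43 in BAT (log2 signal, SD, n = 6 WT arrays each), and eWAT was higher than each (log2 differences 0.79, 1.52 and 0.78, limma adjusted p of 0.00636, 5.63e-06 and 0.00929). It was detected on 5 of 6 liver arrays and on 2 of 6 muscle arrays, so that part of these values lies at background. Nusap1, a spindle microtubule protein, averaged 5.32 ± 0.27 in eWAT, against 4.56 ± 0.30 in liver, 4.58 ± 0.19 in muscle and 4.74 ± 0.26 in BAT. Mcm5 and Mcm4 of the helicase were higher in eWAT in all 3 pairs as well, with Mcm4 at 8.01 ± 0.24 in eWAT, 6.68 ± 0.22 in liver, 7.08 ± 0.39 in muscle and 7.20 ± 0.24 in BAT. For eWAT against liver the 3 largest differences were Tk1 (-1.93), Mcm4 (1.32) and Uhrf1 (1.03, with Uhrf1 detected on 1 of 6 liver arrays and so at background on most of them), and for eWAT against BAT they were Ccnd1 (1.44), Mcm4 (0.80) and Prc1 (0.78). Cdk1, the kinase that starts mitosis, averaged 5.05 ± 0.35 in eWAT and was detected on 6 of 6 arrays, against 3 of 6 in liver, 1 of 6 in muscle and 5 of 6 in BAT.

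Other members followed another order. Aurka, a mitotic kinase, averaged 7.22 ± 0.26 in muscle, against 4.72 ± 0.40 in liver, 4.55 ± 0.17 in BAT and 4.71 ± 0.22 in eWAT. The log2 differences were -2.51 for eWAT, -2.67 for BAT and -2.50 for liver against muscle (limma adjusted p of 8.54e-13, 3.51e-13 and 6.14e-13). Aurka was detected on 6 of 6 arrays in muscle and eWAT, on 4 of 6 in liver and on 3 of 6 in BAT. Rrm1, the large subunit of ribonucleotide reductase, was likewise highest in muscle, at 7.21 ± 0.12, with 5.44 ± 0.18 in liver, 6.50 ± 0.19 in BAT and 5.78 ± 0.30 in eWAT, and Mcm2 at 5.68 ± 0.15 in muscle, with 4.61 ± 0.17, 4.47 ± 0.22 and 4.94 ± 0.18 in liver, BAT and eWAT. Tk1 and Tyms, the 2 enzymes that make thymidine monophosphate, were highest in liver, where Tk1 averaged 6.93 ± 0.58 and Tyms 6.07 ± 0.18. Tk1 averaged 4.52 ± 0.31 in BAT and 5.86 ± 0.29 in muscle, and eWAT was lower than liver by the -1.93 given above. Tyms was detected on 0 of 6 WT muscle arrays, and liver was at least 2.67-fold higher than muscle, taking the lowest detected signal of each muscle array as its bound. The 3 largest member differences were Tk1 (-2.41), Ccnd1 (-1.13) and Rrm1 (1.06) for BAT against liver, and Aurka, Cenpa (1.77) and Tk1 (-1.34) for BAT against muscle.

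Cyclin D1 (Ccnd1), the partner of Cdk4 and Cdk6 in G1, averaged 8.90 ± 0.73 in eWAT, 8.60 ± 0.89 in liver, 7.46 ± 0.44 in BAT and 6.24 ± 0.46 in muscle. The eWAT and liver levels did not pass the test against each other, and all other pairs did. Its differences of 2.66 for eWAT and 2.35 for liver, both against muscle, were the largest increases among the members of those pairs. Cenpa, the histone H3 variant of centromeres, averaged 8.35 ± 0.27 in BAT, 7.86 ± 0.47 in eWAT, 7.41 ± 0.26 in liver and 6.58 ± 0.31 in muscle, and all neighbours in that order differed (limma adjusted p of 0.0162 for eWAT against BAT, 0.0214 for eWAT against liver and 9.16e-05 for liver against muscle). The 5 brightest signals of each tissue are those of Ccnd1 and Cenpa and of 3 more members (Tk1, Mcm4 and Tyms in liver, Aurka, Rrm1 and Mcm4 in muscle, Mcm4, Rrm1 and Mcm5 in BAT, and Mcm4, Prc1 and Mcm5 in eWAT), with Mcm5 at 5.53 ± 0.26 in BAT and 6.12 ± 0.34 in eWAT. The dimmest signals were those of Cdca8 (4.27 ± 0.10), Bub1b (4.28 ± 0.11) and Rrm2 (4.32 ± 0.06) in liver, of Ccne1 (4.20 ± 0.05), Top2a (4.22 ± 0.08) and Tyms (4.22 ± 0.09) in muscle, of Stmn1 (4.24 ± 0.09), Mcm3 (4.25 ± 0.07) and Rrm2 (4.29 ± 0.20) in BAT, and of Stmn1 (4.39 ± 0.11), Ccne1 (4.43 ± 0.12) and Rrm2 (4.43 ± 0.08) in eWAT. The dimmest members were each detected on 0 of 6 WT arrays in liver and muscle, and on 0, 0 and 1 of 6 in BAT. Those values lie at background. In eWAT the dimmest were detected on 5, 4 and 4 of 6. Different probes differ in brightness, so the levels of these genes are not set against each other.

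**Figure D1:**
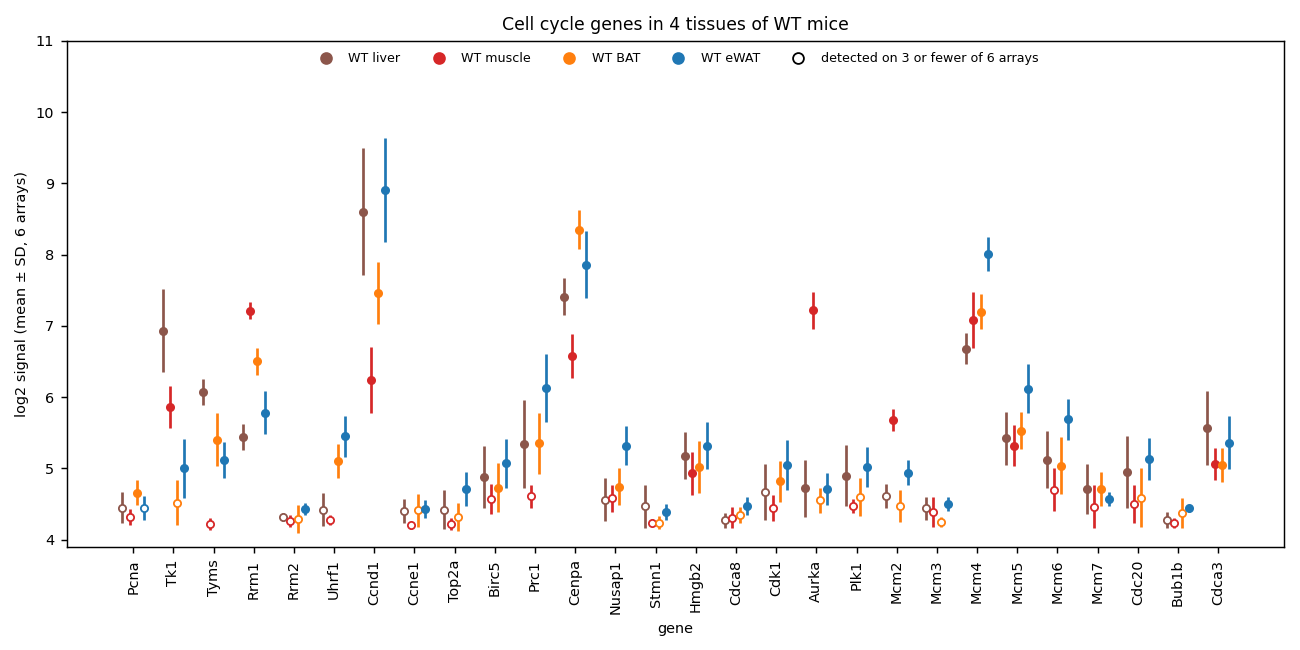
Log2 signal of the 28 members detected in at least 1 tissue, as mean and SD of 6 WT arrays in liver, muscle, BAT and eWAT, with open points where 3 or fewer of the 6 arrays detected the gene. Aurka stands at 7.22 in muscle and at 4.55 to 4.72 in the other tissues, whereas Prc1 and Mcm4 are highest in eWAT.

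Across the interventions few members changed. Of the 12 comparisons with WT, 9 had no member past an adjusted p of 0.05 by limma, and 3 had between 1 and 3 members, all lower. No member rose past the threshold in any of the 12. The median member, with its spread, is set beside the median of all genes in the plot of the 12 comparisons. It was lowest in eWAT under CR, at -0.28 (all genes 0.02), and highest in liver under CR, at 0.27 (all genes 0.01). Members leaned below 0 where none passed as well. The comparisons of a tissue share its WT arrays, so these counts are not independent, and members are not replicates of a condition. Below 0 lay 22 of 28 in EX eWAT, 20 of 28 in SIRT1Tg eWAT and 18 of 22 in SIRT1Tg BAT. Of all genes 47.5%, 47.6% and 47.3% lay above 0 there. In liver 17 of 22 lay below 0 under SIRT1Tg and 16 of 22 under EX (45.3% and 53.9% of all genes above 0). In CR BAT 11 of 22 lay below 0 (49.2% of all genes above 0). In muscle 9, 7 and 8 of 16 lay below 0 under SIRT1Tg, CR and EX (46.2%, 48.7% and 47.2% of all genes above 0).

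**Figure D2:**
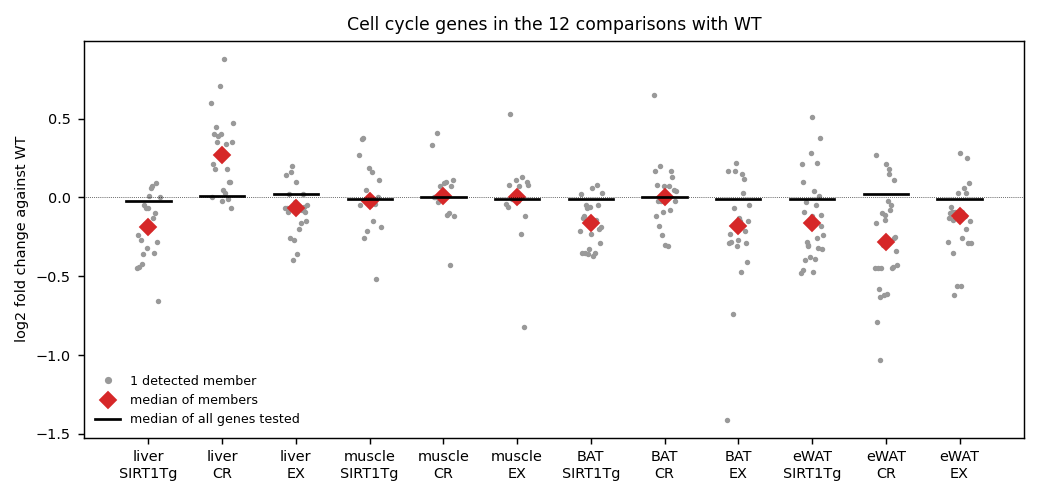
Log2 fold change against WT in the 12 comparisons, with a grey point for each detected member, a red diamond for the median member and a black bar for the median of all genes tested. The diamonds run from -0.28 in eWAT under CR to 0.27 in liver under CR, and the lowest points are Ccnd1 in BAT under EX (-1.41) and Cenpa in eWAT under CR (-1.03).

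In eWAT under CR, 3 of 28 members fell and none rose, by limma over 11791 genes. They were Cenpa, Mcm5 and Tk1, from centromere, helicase and nucleotide supply. The count is 10.7% of the members, against 2.88% of all genes lower and 0.729% higher. Below 0 lay 23 of the 28 fold changes, where 53.1% of all genes lay above 0. By role, 7 of 8 chromosome, spindle and midzone members, 6 of 6 helicase subunits, 3 of 3 mitotic kinases, 3 of 3 checkpoint members, 3 of 6 DNA synthesis members and 1 of 2 G1 cyclins lay below 0.

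Cenpa read 7.43, 7.54 and 8.10 in CR eWAT as the lowest, median and highest of 6 arrays, against 7.86, 8.44 and 9.08 in WT eWAT. The groups overlapped through 1 CR array, at 8.10, above the lowest WT array. The means were 7.65 ± 0.26 in CR and 8.47 ± 0.43 in WT (SD, n = 6 each), and the fitted log2 change was -1.03 ± 0.20 (SE, limma adjusted p = 0.0046). Against the WT arrays of series B alone, the series of all CR animals, it was -1.12 (adjusted p = 0.0119). Without the arrays that stood apart it was -1.02 (adjusted p = 0.00249), and 6 members then passed in place of 3. With slide as a term in the fit over 96 arrays it was -0.93 (adjusted p = 0.000864), and the CR array on the slide shared with WT read 7.51, against 7.86 on the WT array there.

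Mcm5 read 6.09, 6.46 and 6.69 in CR eWAT, against 6.34, 6.84 and 7.27 in WT eWAT (lowest, median, highest). Means were 6.39 ± 0.25 in CR and 6.81 ± 0.34 in WT, the groups overlapped, and the fitted change was -0.62 ± 0.15 (SE, limma adjusted p = 0.0161). The 3 WT arrays of series B, at 6.79 to 7.27, all lay above the CR arrays, whereas the WT arrays of series A spanned 6.34 to 6.89. The call was lost without either of the 2 WT arrays highest in Cenpa, those at 8.80 (adjusted p = 0.0898) and 9.08 (0.0612). Within series B the change was -0.64, with an adjusted p of 0.0752, and without the series term it was -0.41 (adjusted p = 0.15). With slide as a term in the fit over 96 arrays it was -0.77 (adjusted p = 0.0196), whereas on the shared slide Mcm5 read 6.42 in CR and 6.34 in WT.

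Tk1, the salvage kinase for thymidine, read 4.91, 5.09 and 5.37 in CR eWAT, against 4.87, 5.34 and 6.24 in WT eWAT. Means were 5.12 ± 0.20 in CR and 5.50 ± 0.55 in WT, with overlap, and the fitted change was -0.61 ± 0.17 (SE, limma adjusted p = 0.0469). WT arrays of series B stood at 5.48 to 6.24 and those of series A at 4.87 to 5.19, so that the CR arrays lay under the B arrays and overlapped the A arrays. The call was lost without any of 7 single arrays, with the highest adjusted p, 0.254, without the WT array at 9.08 for Cenpa. Another detected probe of Tk1 gave -0.22, and without the series term the change was -0.38 (adjusted p = 0.277). A slide term gave -0.43 (adjusted p = 0.369), and on the shared slide Tk1 read 5.13 in CR and 4.87 in WT.

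Cdk1 lay just outside the threshold in CR eWAT. It read 4.75, 5.04 and 5.58 in CR, against 5.13, 5.54 and 6.15 in WT, with a fitted change of -0.79 ± 0.22 (limma adjusted p = 0.0524). WT arrays of series B read 5.90 to 6.15, and those of series A 5.13 to 5.19. Cdk1 passed with the deposited log2 values, without background correction, with an offset of 50 and under median scaling. It also passed with detection on 12 of 24 arrays, in the joint fit without slide and in series B alone (limma adjusted p of 0.0244 to 0.0461 over these settings). It did not pass without the detection filter, without the series term, with all probes tested, or with slide as a random block or fixed term. Without the arrays that stood apart its change was -0.77. Prc1 (-0.63), Birc5 (-0.58), Top2a, Plk1, Cdc20 and Mcm2 (-0.45 each), none of which passed, lay below 0 too, and Ccne1 (0.27), Pcna (0.21), Rrm1 (0.18), Rrm2 (0.15) and Stmn1 (0.11) lay above it.

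**Figure D3:**
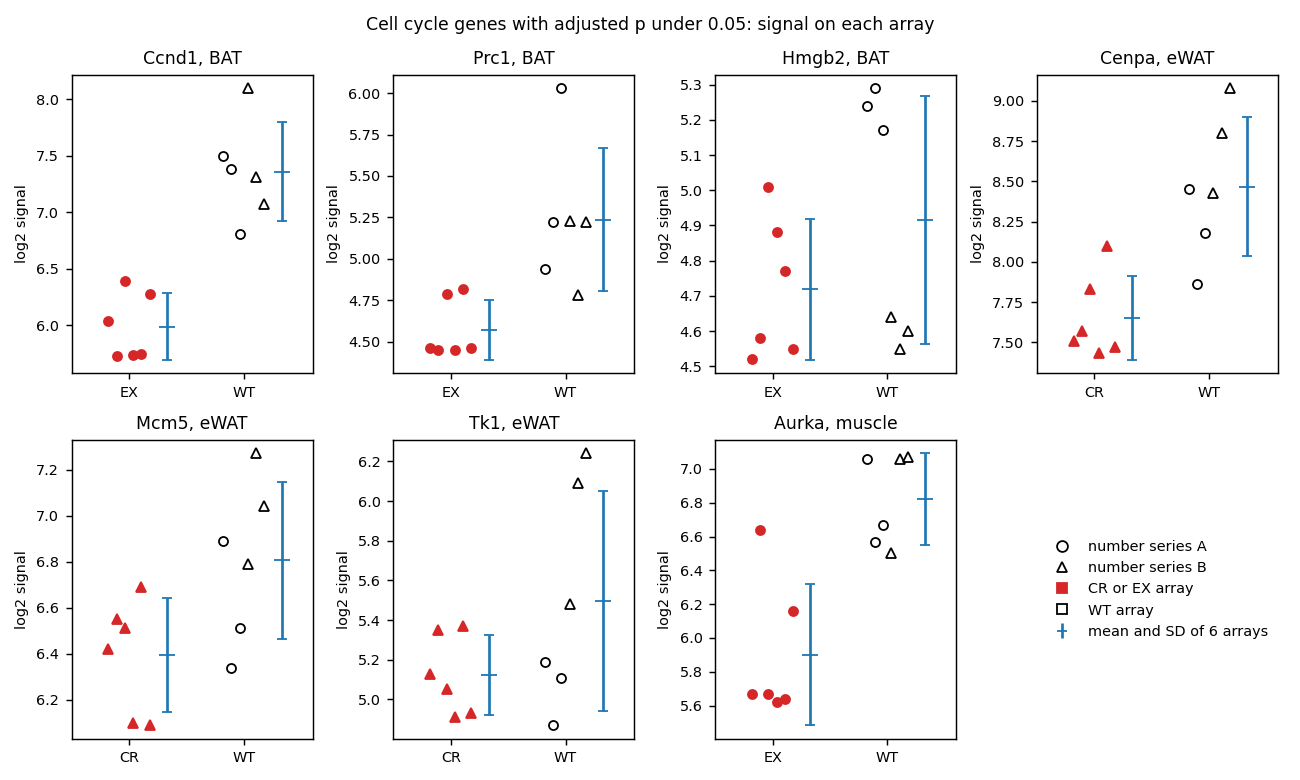
Log2 signal on each array for the 7 differences with an adjusted p under 0.05, with the CR or EX arrays left of the WT arrays, circles for number series A, triangles for series B, and the mean and SD of 6 arrays in blue. Ccnd1 in BAT shows no overlap (5.73 to 6.39 in EX, 6.81 to 8.10 in WT), and Hmgb2 and Tk1 show WT arrays split by number series.

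Markers of other cell types moved in the same eWAT samples. Under CR, 4 of 6 detected macrophage markers fell (median log2 change -1.26), 3 of 4 markers of lipid-laden macrophages fell (-1.78) and 3 of 3 T cell markers fell (-1.32), by limma. The summed macrophage markers ran from 11.34 to 12.02 in CR and from 12.17 to 13.34 in WT, and the summed T cell markers from 7.29 to 7.96 in CR and from 7.35 to 9.41 in WT, with Itgam, Itgax, Cd4 and Cd8a not detected. None of 6 endothelial markers passed (median 0.08). Of 2 muscle fibre markers Acta1 was lower (-2.64 ± 0.61, limma adjusted p = 0.0151), and of 5 adipocyte markers Retn was higher (0.80 ± 0.21, adjusted p = 0.036). The part of these cell types in the cell cycle result was not tested.

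Among further cell cycle genes, listed with earlier results of these data known, 79 were tested in CR eWAT and 3 passed, all lower. That is 3.8% of the list, near the 2.88% of all genes lower. They were Incenp, a partner of aurora B (-0.62 ± 0.16, limma adjusted p = 0.0252), the chromosome kinesin Kif22 (-0.61 ± 0.15, adjusted p = 0.0272) and Kif2c, which takes microtubules apart at centromeres (-0.65 ± 0.17, adjusted p = 0.0336). Incenp averaged 4.97 ± 0.24 in CR and 5.51 ± 0.34 in WT, Kif22 5.48 ± 0.21 in CR and 5.85 ± 0.42 in WT, and Kif2c 4.50 ± 0.16 in CR and 4.87 ± 0.49 in WT. Of the mitotic genes of that list 18 of 22 lay below 0 (median -0.24), where 53.1% of all genes lay above 0, beside medians of -0.06 for 29 replication genes and 0.01 for 28 G1 regulators.

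**Figure D4:**
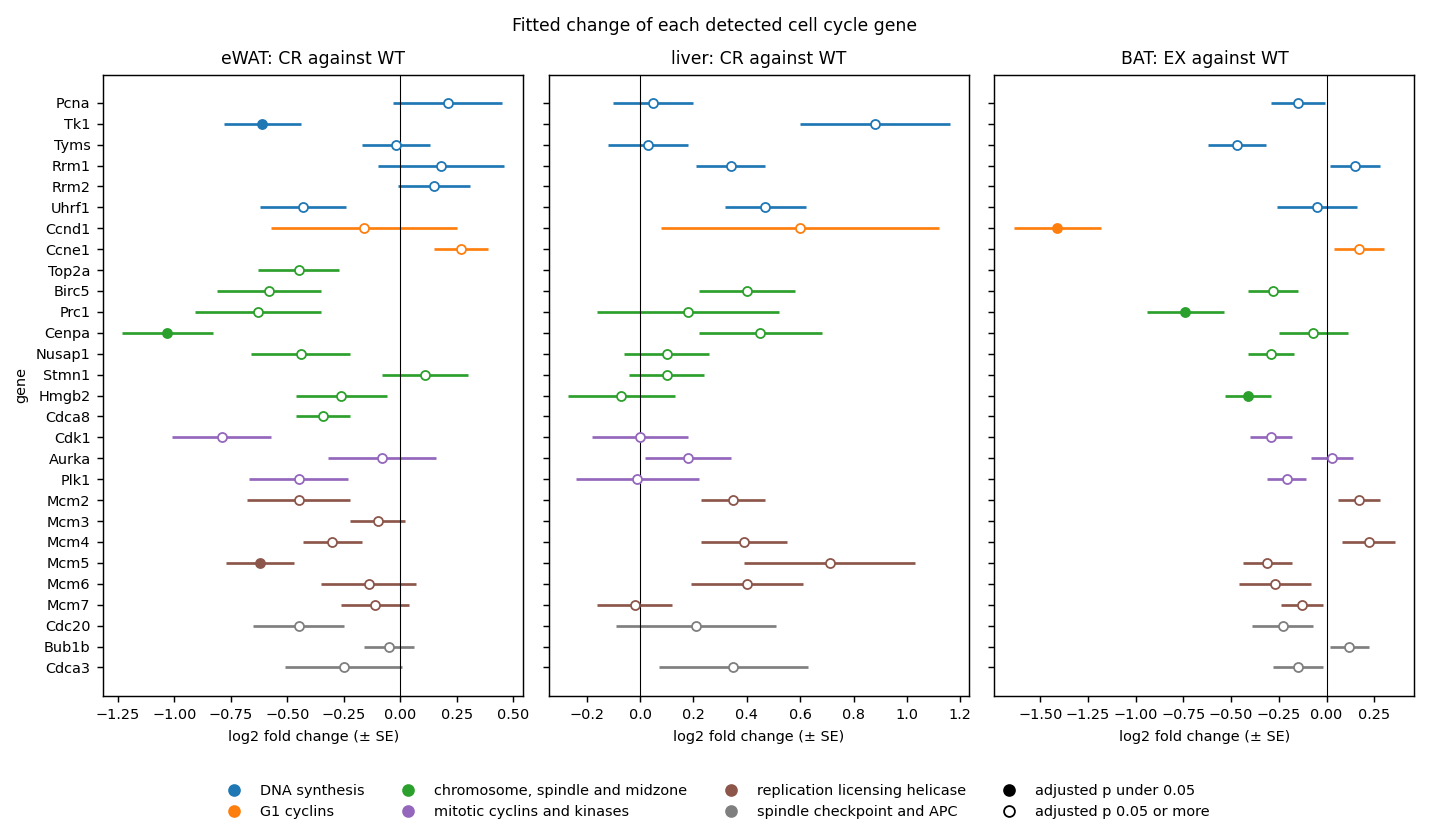
Fitted log2 fold change and SE of each detected member, coloured by role, in eWAT under CR, in liver under CR and in BAT under EX, with filled points where the adjusted p was under 0.05 and separate scales on the x axes. Most points lie below 0 in eWAT under CR (23 of 28) and in BAT under EX (16 of 22), and 18 of 22 lie above 0 in liver under CR. Among comparisons not drawn, 22 of 28 lay below 0 in EX eWAT and 18 of 22 in SIRT1Tg BAT, but 11 of 22 in CR BAT.

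In liver under CR the members lay to the other side of 0, and none passed. Of 22 members 18 had a fold change above 0, against 52.2% of all 9973 genes. By limma 0 of 22 were called (0.15% of all genes were higher and 0.12% lower), whereas 7 had an unadjusted p under 0.05, all of them higher, beside 3.18% of all genes higher at that p. The 7 were Uhrf1, Tk1, Mcm2, Rrm1, Mcm4, Birc5 and Mcm5, of which 3 are helicase subunits and 3 serve DNA synthesis. Uhrf1 was detected on 6 CR, 1 EX, 1 WT and 0 SIRT1Tg liver arrays, and Pcna on 4, 2, 1 and 2. Without their CR arrays these 2 genes would not have met the detection filter of 6 arrays. The counts of this paragraph carry that lean towards CR. All 5 DNA synthesis members detected lay above 0, and 4 of 5 helicase subunits.

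Tk1 read 6.60, 7.62 and 8.10 in CR liver, against 6.07, 6.70 and 7.54 in WT liver. The groups overlapped, and the fitted change of 0.88 ± 0.28 had an adjusted p of 0.345 by limma. In the fit over all 96 arrays without slide the change was 0.86, with an adjusted p of 0.00843, and with slide as a term 0.75 (adjusted p = 0.0975). Uhrf1, which reads newly replicated DNA for the maintenance methyltransferase, read 4.53, 4.83 and 5.33 in CR, against 4.16, 4.35 and 4.60 in WT, with a change of 0.47 ± 0.15 that did not pass. It was detected on 6 of 6 CR arrays and on 1 of 6 WT arrays. Mcm2 read 4.76, 4.83 and 5.11 in CR, against 4.37, 4.56 and 4.69 in WT, without overlap, and its change of 0.35 ± 0.12 had a limma adjusted p of 0.47. Mcm5 averaged 5.81 ± 0.41 in CR and 5.28 ± 0.36 in WT (change 0.71 ± 0.32, not past the threshold).

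Of the further cell cycle genes, Rpa1, which coats single-stranded DNA, rose in CR liver. It averaged 9.11 ± 0.13 in CR and 8.63 ± 0.13 in WT, with a change of 0.51 ± 0.10 (limma adjusted p = 0.0354), and it was the only one of 68 to pass there (1.47%, against 0.15% of all genes higher). No hepatocyte, macrophage or T cell marker passed in this comparison, and of 3 brown adipocyte markers Elovl3, a fatty acid elongase, was lower (-1.44 ± 0.29, limma adjusted p = 0.0307). The kinase inhibitor p21 (Cdkn1a) averaged 6.68 ± 1.14 in CR liver and 7.92 ± 1.05 in WT liver, with a change of -1.43 ± 0.53 that did not pass (limma adjusted p = 0.505).

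Whether the CR effect differed between the tissues was tested directly, in 1 fit over the 96 arrays. By the moderated F test 3 of 28 members passed, Cenpa, Tk1 and Mcm5, against 2.81% of all 12533 genes. In that fit the CR effect on Cenpa was 0.43, 0.39, 0.20 and -1.11 for liver, muscle, BAT and eWAT (limma adjusted p = 0.000221). For Tk1 the effects were 0.86, -0.11, -0.08 and -0.45 in the same order (adjusted p = 0.00753), with BAT below the detection filter. For Mcm5 they were 0.72, -0.00, -0.09 and -0.60 (adjusted p = 0.0273). In each of the 3 genes liver had the highest and eWAT the lowest effect.

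The same test passed for 0 of 28 members under SIRT1Tg (0.247% of all genes, with 4 members and 6.8% of all genes at an unadjusted p under 0.05) and for 0 of 28 under EX (0.862% of all genes, with 2 members and 12.3% of all genes at that p). A difference of the other members between tissues under CR was not shown, and their effects are drawn side by side in the plot of the CR effect by tissue.

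**Figure D5:**
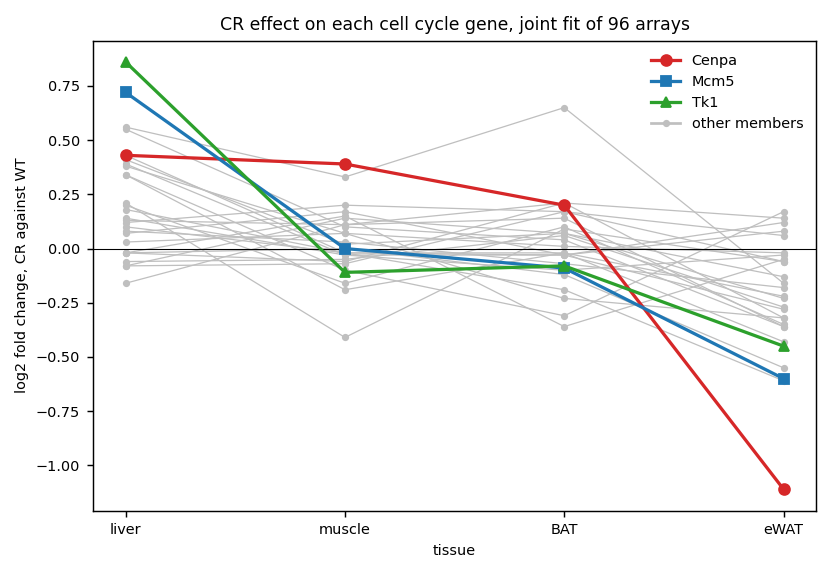
Log2 fold change of CR against WT for 28 members in liver, muscle, BAT and eWAT, from the fit over 96 arrays, with a line for each gene. Cenpa, Mcm5 and Tk1 are coloured and end lowest in eWAT, at -1.11, -0.60 and -0.45.

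In BAT under EX, 3 of 22 members fell and none rose, by limma over 10025 genes. The count is 13.6% of the members, against 3.01% of all genes lower and 1.59% higher. They were Ccnd1, Prc1 and Hmgb2, from G1, the midzone and chromatin. The median member lay at -0.18 (all genes -0.01), and 16 of 22 lay below 0, where 48.7% of all genes lay above 0. In SIRT1Tg BAT, without a call, the median was -0.16 and 18 of 22 lay below 0, where 47.3% of all genes lay above 0. Both comparisons use the same WT arrays.

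Ccnd1 read 5.73, 5.89 and 6.39 in EX BAT, against 6.81, 7.34 and 8.10 in WT BAT (lowest, median, highest). Every EX array lay below every WT array of both number series. Means were 5.99 ± 0.29 in EX and 7.36 ± 0.44 in WT (SD, n = 6 each), and the fitted change was -1.41 ± 0.23 (SE, limma adjusted p = 0.00186). The other 2 probes of Ccnd1 gave -1.37 and -0.55, with a smallest adjusted p of 0.00208. Within series A the change was -1.25 (adjusted p = 0.0219). With slide as a term in the fit over 96 arrays it was -1.52 (adjusted p = 0.0748), and without slide in that fit -1.40 (adjusted p = 0.0472). With slide as a random block within BAT it was -1.41 (adjusted p = 0.00247). On the slide shared by an EX and a WT array Ccnd1 read 6.04 in EX and 7.07 in WT.

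The other groups of BAT gave Ccnd1 at 6.25 to 7.50 in SIRT1Tg (change -0.21 ± 0.21) and at 7.54 to 8.29 in CR (0.65 ± 0.23), neither past the threshold. In the other tissues under EX the changes of Ccnd1 were -0.07 ± 0.52 in liver, -0.04 ± 0.23 in muscle and -0.13 ± 0.41 in eWAT, and the EX effect on it was not shown to differ between tissues by the F test (limma adjusted p = 0.413). Under CR, Ccnd1 had changes of 0.60 ± 0.52 in liver, 0.33 ± 0.23 in muscle and -0.16 ± 0.41 in eWAT, and under SIRT1Tg of -0.45 ± 0.46, 0.27 ± 0.21 and 0.21 ± 0.37 in liver, muscle and eWAT.

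Prc1 read 4.45, 4.46 and 4.82 in EX BAT, against 4.78, 5.22 and 6.03 in WT BAT. It was detected on 3 of 6 EX arrays and on 6 of 6 WT arrays, with a small overlap. Means were 4.57 ± 0.18 in EX and 5.24 ± 0.43 in WT, and the change was -0.74 ± 0.20 (limma adjusted p = 0.032). Without the highest WT array the adjusted p was 0.157, and within series A it was 0.0804 for a change of -0.82. A slide term gave -0.97 (adjusted p = 0.0522), and on the shared slide Prc1 read 4.46 in EX and 5.22 in WT.

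Hmgb2, a DNA-bending chromatin protein, read 4.52, 4.67 and 5.01 in EX BAT, against 4.55, 4.90 and 5.29 in WT BAT. WT arrays fell into a high set in series A (5.17 to 5.29) and a low set in series B (4.55 to 4.64), and the EX arrays, all of series A, lay below the A set and reached the B set. The means, 4.72 ± 0.20 in EX and 4.91 ± 0.35 in WT, differed less than the fitted change of -0.41 ± 0.12 (limma adjusted p = 0.0493). Without the series term the change was -0.20 (adjusted p = 0.558), and within series A -0.51 (adjusted p = 0.0772). A slide term gave -0.31 (adjusted p = 0.641), and on the shared slide Hmgb2 read 4.52 in EX and 4.60 in WT. The call was lost without any of 9 single arrays, with adjusted p up to 0.137. Hmgb2 was also the only member whose series term passed, in BAT (limma adjusted p = 0.0202).

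Just outside the threshold in EX BAT lay Tyms, at 4.64, 4.89 and 5.32 in EX and 4.66, 5.36 and 5.67 in WT, with a change of -0.47 ± 0.15 (limma adjusted p = 0.0706). Cdk1 (-0.29), Nusap1 (-0.29), Mcm5 (-0.31), Birc5 (-0.28) and Plk1 (-0.21) lay below 0 and did not pass. Mcm4 (0.22), Mcm2 (0.17), Ccne1 (0.17) and Rrm1 (0.15) lay above 0 and did not pass either.

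Of 67 further cell cycle genes tested in EX BAT, 3 passed, all lower. That is 4.48% of the list, near the 3.01% of all genes lower. E2f1, the activating S phase transcription factor, averaged 4.75 ± 0.20 in EX and 5.17 ± 0.20 in WT (change -0.49 ± 0.13, limma adjusted p = 0.0294). Orc6, of the origin recognition complex, averaged 7.26 ± 0.28 in EX and 7.70 ± 0.25 in WT (-0.46 ± 0.13, adjusted p = 0.0433). The kinase inhibitor p57 (Cdkn1c), which holds cells in G1, averaged 8.84 ± 0.40 in EX and 9.43 ± 0.82 in WT (-0.92 ± 0.26, adjusted p = 0.0427). Of the 3, E2f1 and Orc6 serve the cycle and Cdkn1c restrains it.

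Other cell types moved in EX BAT as well. Macrophage markers fell in 3 of 6 (median -0.84), markers of lipid-laden macrophages in 3 of 3 (-0.75) and stromal markers in 2 of 5 (-0.35), by limma, and none of 5 endothelial markers passed (-0.26). Summed macrophage markers ran from 9.06 to 9.76 in EX and from 9.42 to 11.05 in WT, and summed stromal markers from 7.86 to 8.21 in EX and from 8.04 to 8.87 in WT. The muscle fibre markers had a median change of 1.81, none of 6 past the threshold, and ran from 6.88 to 14.19 in EX and from 6.81 to 12.19 in WT. Their part in the result was not tested. Without the BAT arrays that stood apart by muscle fibre markers, the change of Ccnd1 was -1.48 (limma adjusted p = 0.0126), and that of Prc1 was -0.79 (adjusted p = 0.0535). For Hmgb2 it was -0.57 (adjusted p = 0.0203).

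In muscle under EX, 1 of 16 members fell, against 0.804% of all 9450 genes lower and 1.23% higher, and none rose. Aurka read 5.62, 5.67 and 6.64 in EX muscle, against 6.50, 6.87 and 7.07 in WT muscle. Of the EX arrays, 5 lay below every WT array and 1 reached among them. Means were 5.90 ± 0.41 in EX and 6.82 ± 0.27 in WT, and the change was -0.82 ± 0.19 (SE, limma adjusted p = 0.0265). Within series A it was -0.87 (adjusted p = 0.0458), and with slide as a term in the fit over 96 arrays -0.92 (adjusted p = 0.000446). On the shared slide Aurka read 5.67 in EX and 7.07 in WT. The call was lost without any of 6 single arrays, with a highest adjusted p of 0.146 without a WT array that read 7.06. Aurka was also below WT, without passing, in SIRT1Tg muscle (-0.52 ± 0.17) and in CR muscle (-0.43 ± 0.19).

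Cenpa read 6.21, 6.49 and 7.11 in EX muscle, against 5.58, 6.21 and 6.54 in WT muscle, with overlap. Its change of 0.53 ± 0.15 did not pass (limma adjusted p = 0.0676), nor did that of Nusap1 (-0.12 ± 0.09). Without the muscle array of low detection the adjusted p for Cenpa was 0.0479. No further cell cycle gene of 61 passed in EX muscle, and among markers of muscle fibres, macrophages and stromal cells none passed, whereas Tie1 of 5 endothelial markers and Cox7a1 of 3 brown adipocyte markers rose.

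The remaining comparisons had no member past the threshold by limma. SIRT1Tg liver had 0 of 22 (0.01% of all genes higher and 0.0501% lower) and 1 member at an unadjusted p under 0.05 (10.2% of all genes), Cdca3, which promotes entry into mitosis (-0.66 ± 0.25, adjusted p = 0.371). Next by p were Cenpa (-0.36 ± 0.21) and Plk1 (-0.35 ± 0.21). The median member lay at -0.19 (all genes -0.02), and at -0.19 without the array of low Sirt1 as well, when Cdca3 stood at -0.56. EX liver had 0 of 22 (0% higher and 0.0201% lower) and 0 members at an unadjusted p under 0.05 (8.63% of all genes), with Tyms (-0.20 ± 0.15), Mcm2 (0.16 ± 0.12) and Mcm4 (0.20 ± 0.16) of smallest p.

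SIRT1Tg muscle had 0 of 16 members past the threshold (0.0212% of all genes higher and 0.0106% lower) and 4 at an unadjusted p under 0.05 (8.46% of all genes). Prc1 (0.37 ± 0.11) and Cenpa (0.38 ± 0.14) lay above WT, and Aurka (-0.52 ± 0.17) and Mcm2 (-0.26 ± 0.10) below it. CR muscle had 0 of 16 (0% of all genes in either direction) and 2 at that p (6.11% of all genes), Cenpa (0.41 ± 0.15) and Aurka (-0.43 ± 0.19), with Ccnd1 next. The medians were -0.02 and 0.01.

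SIRT1Tg BAT had 0 of 22 members past the threshold (0.14% of all genes higher and 0.249% lower), and 7 at an unadjusted p under 0.05, all below WT, beside 8.52% of all genes lower at that p. Cdk1 averaged 4.37 ± 0.13 in SIRT1Tg and 4.72 ± 0.26 in WT, was detected on 1 of 6 arrays in SIRT1Tg and 5 of 6 in WT, and had a change of -0.35 ± 0.10 (limma adjusted p = 0.0915). Rrm1 (-0.35 ± 0.12), Mcm4 (-0.36 ± 0.12) and Tyms (-0.37 ± 0.13) followed. CR BAT had 0 of 22 (0.0898% higher and 0.18% lower) and 3 at that p (10% of all genes), Ccnd1 above WT (0.65 ± 0.23) and Mcm7 (-0.30 ± 0.11) and Rrm1 (-0.31 ± 0.13) below.

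SIRT1Tg eWAT had 0 of 28 members past the threshold (0.017% of all genes higher and 0.0424% lower), and 9 at an unadjusted p under 0.05 (9.07% of all genes), of which 6 lay below WT and 3 above. Tk1 (-0.47 ± 0.15), Cdca8 (-0.33 ± 0.11) and Top2a (-0.48 ± 0.16) had the smallest p. Cdca8 was detected on 0 SIRT1Tg, 2 CR, 2 EX and 5 WT arrays of eWAT. Without the WT arrays, where it was higher, it would not have met the detection filter, so its decrease carries that lean. EX eWAT had 0 of 28 (0% higher and 0.00848% lower), and 3 at that p (4.13% of all genes), Mcm5 (-0.56 ± 0.15), Tk1 (-0.56 ± 0.17) and Cenpa (-0.62 ± 0.20). EX and CR share the WT arrays, so the values are only set side by side: for Cenpa -0.62 under EX and -1.03 under CR, for Mcm5 -0.56 under EX and -0.62 under CR, and for Tk1 -0.56 under EX and -0.61 under CR.

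The kinase inhibitors showed no call outside EX BAT. Cdkn1a was above WT in all 4 tissues of SIRT1Tg mice, with changes of 1.63 ± 0.48, 1.41 ± 0.41, 1.08 ± 0.30 and 1.06 ± 0.26 for liver, muscle, BAT and eWAT, and none passed (limma adjusted p of 0.231, 0.38, 0.0929 and 0.148). In BAT it averaged 10.72 ± 0.47 in SIRT1Tg and 9.64 ± 0.58 in WT. Under EX its changes were 1.02 ± 0.53, 0.77 ± 0.46, 0.89 ± 0.34 and 0.77 ± 0.29 in the same order of tissues, and none passed. Under CR they were -1.43 ± 0.53, 0.21 ± 0.46, -0.17 ± 0.34 and -0.59 ± 0.29. Cdkn1b (p27) stayed near the array background, at 4.41 to 4.62 in group means, with changes of -0.22 to 0.11. Cdkn1c had changes of -0.23 to 0.67 in the comparisons other than EX BAT, the highest in SIRT1Tg eWAT (adjusted p = 0.186).

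Averaged over the detected members, eWAT arrays read 5.55 to 5.79 in CR and 5.55 to 6.07 in WT, and the 3 WT arrays of series B (5.79 to 6.07) stood at or above all CR arrays. BAT arrays read 4.95 to 5.12 in EX and 5.10 to 5.35 in WT, nearly without overlap. SIRT1Tg arrays of BAT had the same range as EX, 4.95 to 5.12, and CR arrays read 5.11 to 5.34. Liver arrays read 5.32 to 5.86 in CR and 5.09 to 5.66 in WT. Muscle arrays read 5.08 to 5.35 in EX and 5.15 to 5.38 in WT, close to the 5.19 to 5.29 of SIRT1Tg and the 5.23 to 5.33 of CR.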

How the data were processed

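RNA of 4 tissues was read on Illumina bead arrays, 6 per group. The deposited values are linear probe intensities without detection p-values, and a second deposited table holds log2 values of the same arrays. GenomeStudio and Partek are named in the submitters' processing notes, and their versions and settings are not given in the sources used here. From the intensities, the mode of each array's log2 density (bandwidth 0.03) gave the background, which was corrected by normexp (offset 16) before quantile normalisation within a tissue. Probes above the upper 0.05 tail of background on at least 6 of 24 arrays were kept, and the brightest probe stood for a gene. limma 3.58.1 in R 4.3.3 fitted condition and number series per tissue over 24 arrays, with Benjamini-Hochberg adjustment over all genes and a threshold of 0.05. WT tissues and differences between tissues were fitted after joint normalisation of 96 arrays. The scripts were checked on simulated data. The number of arrays limits the precision. Within a tissue each array comes from another animal, and p-values measure differences between mice and between arrays together. The fits over several tissues took arrays of the same animal as independent, except where a replicate block is named.

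The members, the further gene list and the marker lists were chosen with earlier results of these data known. Named are members past the threshold, or else the 3 of smallest p, the 5 brightest and 3 dimmest per tissue, the 3 largest differences per tissue pair, further genes past the threshold, and the G1 inhibitors. Animal numbers recur across tissues. Deviations from group means correlated at a median of 0.072 over 135 pairs of the same animal (-0.211 to 0.277), against -0.012 over 729 pairs of other animals.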

Additional observations from a re-analysis of the deposited data

Results flagged for a closer look

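Prc1 in WT BAT had 1 array far from the others. The highest array read 6.03 on the log2 scale, and the other 5 WT arrays read 4.78 to 5.23. It was the only such case in 30 groups of arrays examined, where chance gives about 1.5. Without that array the change of Prc1 under EX was -0.49 (limma adjusted p = 0.157).

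The CR effect on 3 members differed between the 4 tissues by limma's moderated F test. For Cenpa the adjusted p of the difference was 0.000221, for Tk1 0.00753 and for Mcm5 0.0273, with the lowest effect of each in eWAT and the highest in liver. In eWAT macrophage and T cell markers fell in the same comparison, and their part in the difference was not tested.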

How the results depend on the processing

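Of the 12 comparisons with WT, 9 had no member past the threshold as reported. Among the alternatives that kept all arrays, 1 changed that: the joint fit without slide called 1 member in CR liver (Tk1). Leaving out single arrays gave 0 to 1 in SIRT1Tg BAT, with 1 (Cdk1) without a WT array of series A. In EX muscle the count of 1 became 0 under median scaling and 0 without the detection filter, 2 without the arrays that stood apart, and 0 to 2 when single arrays were left out. It was 0 without any of the 3 WT arrays of series A or of 3 EX arrays, and 2 without another EX array. In EX BAT the count of 3 became 1 without the detection filter, without background correction and in series A alone, each time Ccnd1. With slide as a fixed term it became 1 as well, but that was Tyms, and Ccnd1, Prc1 and Hmgb2 all lost their calls. It was 1 to 4 with single arrays left out (1 without either of 2 WT arrays of series A or any of 3 EX arrays). In CR eWAT the count of 3 became 1 without the series term, 6 without the arrays that stood apart, and 1 to 4 with single arrays left out (1 without either of the 2 WT arrays highest in Cenpa). Cenpa in CR eWAT kept its call under all 12 settings and all 12 omissions tried.

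The 3 members whose CR effect differed between tissues became 6 under median scaling, 5 without the series term and 8 without the arrays that stood apart. For EX, 0 became 1 with the deposited log2 values, 1 without background correction, 2 without the series term and 1 without the arrays that stood apart. With the animal as a replicate block the counts were 3 for CR, 0 for SIRT1Tg and 0 for EX, and the block changed no count between WT tissues either (14, 20, 14, 8, 11 and 11). Cenpa and Tk1 kept the call of a CR difference between tissues under all 6 settings tried, whereas Mcm5 lost it under 1. Among the single genes reported, direction turned in 3 values that did not pass: Tyms in EX liver under median scaling (0.01), and, with slide as a fixed term, Mcm4 in EX liver (-0.01) and Ccnd1 in CR muscle (-0.06). Medians of members near 0 changed sign too, with -0.15 to 0.10 over the settings in EX liver (-0.07 as fitted), -0.05 to 0.05 in SIRT1Tg muscle, -0.05 to 0.03 in CR muscle, -0.06 to 0.05 in EX muscle and -0.02 to 0.02 in CR BAT. The causes were not tested. The joint fit without slide, the removal of the arrays that stood apart and the values on shared slides were chosen after seeing the data. After that removal 1 EX array remained in eWAT, assumed to vary like the other groups. Members near background, such as Cdk1 and Hmgb2 in BAT, are limited by signal over background.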
